A study of Mus musculus with 908 samples.

Results

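The cells described here were single tumour cells of mouse skin squamous cell carcinoma, sorted before any immunotherapy as negative for CD45, CD117, CD140a and CD31 and as positive for integrin α6, mCherry, CD34 and CD44. They filled plates CSC1 and CSC2. A well was kept as 1 cell when at least 2000 genes, spike-ins apart, had a TPM of 1 or more, TPM being a gene's share of transcripts, corrected for length and scaled to the same total in every cell. Kept were 73 of 82 wells analysed on CSC1 and 32 of 72 on CSC2, out of 908 wells in the series. The 2 cells just inside the limit had 2139 and 2357 genes, and the nearest well left out had 1962. The mice carried TRE-HrasG12V, an HRAS oncogene that needs the rtTA activator, with SBE-mCherry-PGK-rtTA3, in which SMAD binding elements drive mCherry and the PGK promoter drives rtTA3. They were at postnatal day 60 to 90 and of mixed sex. The other gates before therapy came from the same strain and ages, with the same 4 exclusions, and were sorted as lacking mCherry and CD34. They were CD44+ and α6+ (15 cells kept), CD44-negative and α6+ (91 cells), or negative for CD44 and α6 (43 cells). No label names an animal, and each gate counts as 1 sample. So nothing between gates or plates was tested, each fold is a ratio between these cells, and intervals cover counting error only.

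TGF-β ligands bind paired receptor kinases that phosphorylate SMAD2 and SMAD3, which enter the nucleus with SMAD4 and act on genes through SMAD binding elements. An mCherry gene behind such elements marks cells in which this signal is or was active. In skin squamous carcinoma, basal tumour cells sit on a basement membrane of laminins and collagens, held by hemidesmosomes of α6β4 integrin, while cells that leave it turn on suprabasal keratins and the proteins of the cornified envelope.

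The kept cells had a median of 7760 genes, with 9780 at most, and 11 cells had under 6000, 3 of them on CSC1 and 8 on CSC2. Rows of ribosomal RNA took a median of 71.6% of the TPM in a cell, from 11.53% to 85.5%, and spike-ins took over 10% in 3 cells. Plates OT_C and OT_D carry labels of another strain, TRE-OVA;TRE-HrasG12V:PGK-rtTA3P2AmCherry, after cell transfer. Their wells nevertheless matched those of CSC1 and CSC2 well by well. A kept library in the same well was present for 72 of the 73 cells on CSC1 and for 30 of the 32 on CSC2, and it was the closest of its plate for 71 and 29 of them. Same-well libraries had a median r of 0.941 between CSC1 and OT_C over log2(TPM + 1) of all genes, against 0.777 for other wells. Between CSC2 and OT_D the values were 0.937 and 0.685. Which of the labels is right is not settled by these values, and the OT libraries serve below only as a second reading of the same wells. On CSC1 the wells H5 and H6 matched each other at r = 0.938, so 1 cell may be counted 2 times. Transcripts of Xist were found at 1 TPM or more in 0 of the reporter-positive cells, and Y-linked transcripts in 99. The 0 allows a share of up to 2.86%, taken as 3 over the number of cells and not as an exact interval. Xist was found in 14 of 15 CD44+ reporter-negative, 43 of 91 CD44-negative α6+ and 0 of 43 α6-negative cells. Y-linked transcripts were found in 2, 45 and 39 cells of these gates. Against the CD44+ reporter-negative cells, nearly all with Xist, sex and gate can hardly be told apart, while the α6+ cells without CD44 held both kinds.

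All kept reporter-positive cells read as keratinocytes. Of 6 marker lists, the keratinocyte list had the highest mean level in each cell, and 14 of its 15 genes were found in at least 95% of cells. Found means 1 TPM or more. Of the genes behind the sort, Cd44, the hyaluronan receptor, was found in every cell. Its level ran from 29.4 TPM through a median of 313.3 to 1355. Itga6, the α6 integrin chain of the hemidesmosome, ran from 0 through 63.7 to 420.6 TPM and was found in 98 cells. Cd34, a sialomucin of hair follicle stem cells, was found in only 38 cells (36.2%, exact 95% interval 27.04 to 46.1), with a median of 0.48 and a highest value of 90.5 TPM. At a limit of 5 TPM the share was 22.9%. The 38 cells with Cd34 also had Itga6 and Cd44, so the transcripts of all 3 sorted proteins were found together in those 38. The other gates, sorted as CD34-negative, had Cd34 in 1 of 15, 10 of 91 and 20 of 43 cells, the last in α6-negative cells.

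Among the genes whose proteins were excluded, Ptprc, which encodes CD45, was found in 1 cell. Kit, which encodes CD117, was found in 2 cells and Pdgfra, which encodes CD140a, in 10. Pecam1, which encodes CD31, was found in 54 cells (51.4%), with a median of 2.04 and a highest value of 91.5 TPM. It was found in 2 of 15, 10 of 91 and 1 of 43 cells of the other gates. Of the 7 endothelial markers, Pecam1 included, 5 were found in under 5% of cells, with Cdh5 in 2 cells and Egfl7 in 38. Kdr, Tek, Emcn and Cldn5 were found in 0. The list summed to between 0 and 91.5 TPM, with a median of 4.99. The fibroblast list of 9 genes summed to a median of 0.38 TPM and the immune list of 11 genes to 3.84 TPM. The sum was over 50 TPM in 4 cells for each of these, in 6 for the endothelial list and in 15 for the 7 pericyte and muscle markers.

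Krt18, a keratin of simple epithelia, Cd80, a ligand of CD28 and CTLA-4 on T cells, and Stra6, the receptor for retinol-binding protein, had been proposed as markers of these cells. Stra6 was found in 94 cells (89.5%, 82.03 to 94.7). Its level ran from 0 through 91.5 to 1077 TPM. Cd80 was found in 79 cells (75.2%, 65.9 to 83.1) and ran from 0 through 6.76 to 62.4 TPM. Krt18 was found in 62 cells (59.05%, 49.02 to 68.5) and ran from 0 through 7.96 to 428.2 TPM. In the other gates Cd80 was found in 1 of 15, 8 of 91 and 1 of 43 cells, and Krt18 in 2 of 15, 4 of 91 and 1 of 43. Stra6 was found in 1 of 15, 20 of 91 and 8 of 43, so some cells outside the gate had it too. All 3 transcripts were found together in 48 cells (45.7%). Stra6 was found in 35 of the 38 cells with Cd34 and in 59 of the 67 without. For Cd80 the numbers were 28 and 51 and for Krt18 27 and 35, and depth, which bears on all of them, was not taken out. On CSC2 alone, the plate with more shallow cells, the shares were 75% for Stra6, 62.5% for Cd80 and 81.2% for Itga6, against 95.9%, 80.8% and 98.6% on CSC1.

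**Figure D1:**
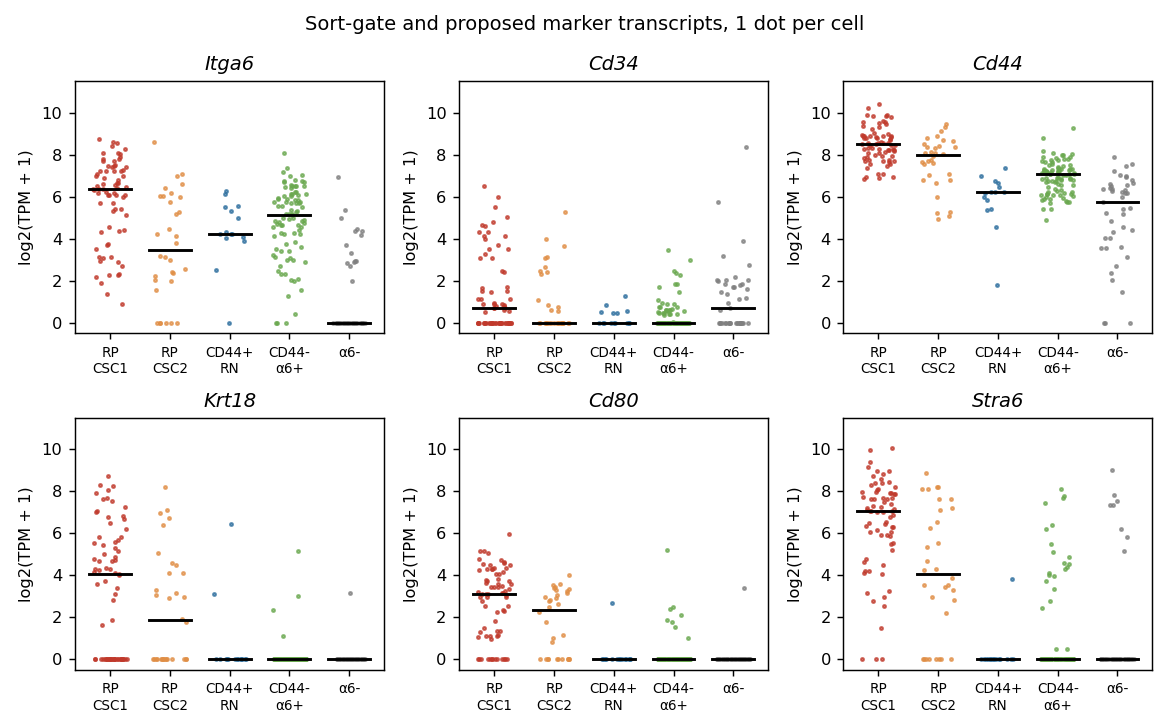
Level of 6 transcripts in each cell, as log2(TPM + 1), in reporter-positive cells (RP) of plates CSC1 (73 cells) and CSC2 (32 cells), CD44+ reporter-negative cells (CD44+ RN, 15), CD44-negative α6+ cells (91) and α6-negative cells (43); bars are medians. Cd44 is above 0 in every reporter-positive cell, Cd34 is at or near 0 in most, and Krt18, Cd80 and Stra6 have a median of 0 in each of the other 3 gates.

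Keratins of basal and of hyperproliferative epidermis were among the most abundant transcripts. Krt14, the type I keratin of basal cells, led with a mean of 6751 TPM and was found in every cell, from 1044 through a median of 6577 to 14087 TPM. Its partner Krt5 ran from 48.1 through 1601 to 3977 TPM. Krt6a, a keratin of wounded and hyperproliferative epidermis, had a mean of 2865 TPM and was missing from 1 cell. Krt17, of the same kind, was found in every cell, from 15.3 through 940.2 to 5786 TPM. Non-keratin genes at the top were Actb (mean 3046 TPM), the fatty acid carrier Fabp5 (2840), the calcium-binding S100a6 (2690) and Sfn, the 14-3-3σ protein of stratified epithelia (1303). The first gene held 2.26% of all TPM outside ribosomal RNA and spike-ins, the first 25 held 15.7% and the first 100 held 32.2%.

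A high mean did not always describe the typical cell. Krt14, Sfn, Gapdh and Eef1a1 had means close to their medians, 6751 against 6577, 1303 against 1223, 1345 against 1275 and 1282 against 1184 TPM. Krtdap, a secreted keratinocyte peptide, had a mean of 1652 TPM and a median of 94.03, and its highest cell held 55575 TPM. Krt16 had a mean of 2009 and a median of 387.4 TPM. Fabp5, Ly6d and the stefin BC100530 were of the same kind, with medians of 578, 487.8 and 176.2 TPM under means of 2840, 1371 and 1358. These 5 were the ones of the 25 whose median was below 50% of the mean, so their place rested on some of the cells.

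**Figure D2:**
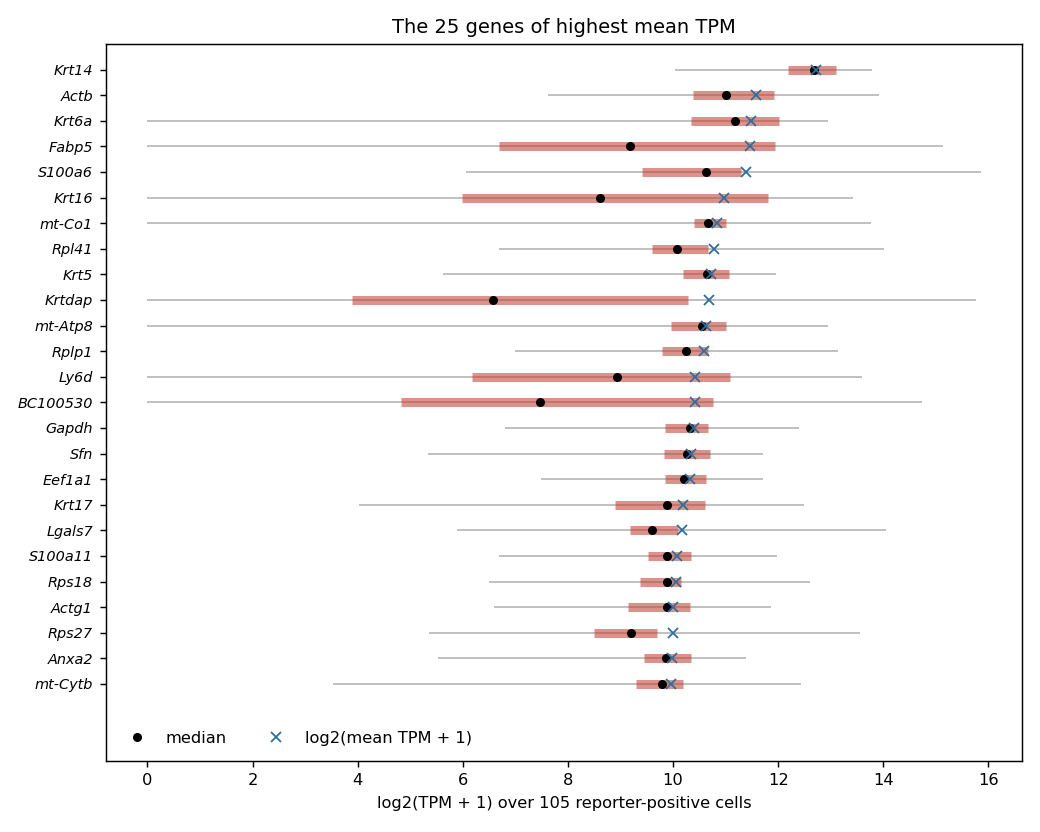
Distribution over the reporter-positive cells, as log2(TPM + 1), of the 25 genes of highest mean TPM, rows of ribosomal RNA and spike-ins left out; grey lines run from the lowest to the highest cell, red bars span the middle quartiles, dots are medians and crosses the log of the mean. Fabp5, Krt16, Krtdap, Ly6d and BC100530 have wide bars with the cross far to the right of the dot, while Krt14 spans a narrow range.

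In all, 1168 genes were found in at least 95% of the reporter-positive cells, 5.67% of the 20596 found in any of them, and 13.4% of these genes were found in every cell. Genes of basic cell functions were well represented. Of 83 cytosolic ribosomal protein genes 75 were among them, as were 20 of 21 translation factors, 47 of 86 nuclear subunits of oxidative phosphorylation, 28 of 49 proteasome subunits and 25 of 32 actin, tubulin and motility genes. Of the 1168, 50% were also found in 95% of CD44+ reporter-negative cells, 75.9% in 95% of CD44-negative α6+ cells and 14.9% in 95% of α6-negative cells. These gates had medians of 7222, 6810 and 5521 genes against 7760, and the part of this gap in the shares was not tested. Among the 15 CD44+ reporter-negative cells, 95% means every cell, a stricter cut than in the larger gates. The count itself moved with depth and plate: it was 2255 among cells of 6000 genes or more, 1991 on CSC1 alone and, as a percentage of the 20596, 2.02% on CSC2 alone.

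Only 13 of the 1168 genes were found more widely than in the next gate by 20 points or more. Acsbg1, an acyl-CoA synthetase, was found in 95.2% of reporter-positive cells against 53.3% of CD44+ reporter-negative cells, 36.3% of those without CD44 but with α6, and 44.2% of those without α6. Sh2d5, an adaptor with an SH2 domain, was found in 97.1% against 40%, 57.1% and 6.98%. Plin2, a coat protein of lipid droplets, was found in 98.1% against 60%, 56.04% and 55.8%. Secreted and signalling proteins followed. Ecm1, an extracellular matrix protein, was found in 96.2% of cells and nowhere else in over 62.6%, Tgfa, a ligand of the EGF receptor, in 97.1% and at most 65.9%, and the kallikrein protease Klk8 in 98.1% and at most 67.03%. Gsta4, a glutathione transferase for lipid peroxides, was found in 96.2% of the gate and in 33.3%, 72.5% and 13.95% of the others, at a level from 0 through 94.97 to 2889 TPM. Others of the 20 with the largest gap were Ctsl, a lysosomal cathepsin, and the kinases Src, Plk2 and Ptk2b, found in 96.2%, 96.2%, 96.2% and 95.2% of cells. With 15 cells in the CD44+ reporter-negative gate, its interval overlapped that of the reporter-positive cells for Nans, Sh3kbp1, Sptlc1, Plk2 and Src.

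**Figure D3:**
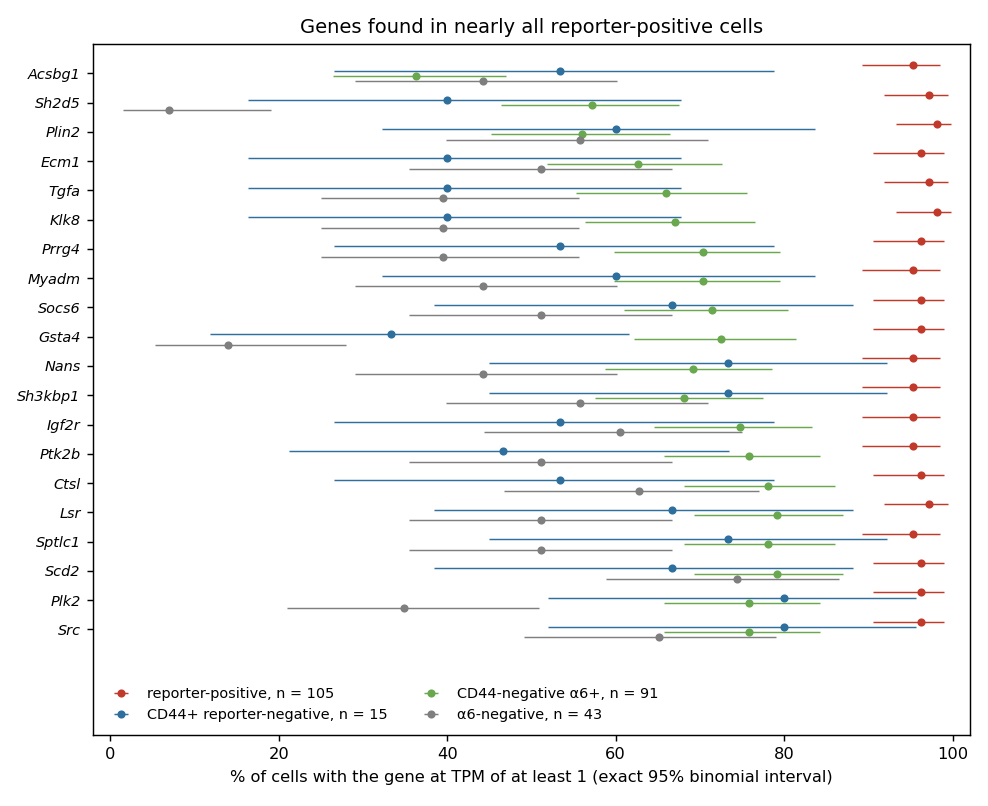
Share of cells in which each of 20 genes was found at 1 TPM or more, with exact 95% binomial intervals that cover counting error only, for the 4 gates before therapy. Reporter-positive cells stand between 95.2% and 98.1% for all 20 genes, and no other gate exceeds 80%.

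To see which genes set these cells apart from each other, the SD of log2(TPM + 1) over the cells was compared with the running median SD of the genes nearest in mean. Of 6306 genes with a mean of at least 5 TPM in at least 10 cells, 4.68% exceeded that median by 0.75 or more. The same-well libraries read these genes again with a median r of 0.902, against 0.770 over all 6306. As r rises with spread, choosing genes by their spread in these cells partly fixes the higher r. Both libraries read the same wells, so a high r alone does not show a difference between cells. An r under 0.5 was found for 91 of the varying genes. Only 11 of those had a protein-coding model and a gene name, as 65.4% of the varying genes do: mt-Atp6, mt-Co2, mt-Co3, mt-Nd3, Rps12, Rps12-ps3, Rps27rt, Hist2h2aa1, Hist2h2aa2, Pin4 and Tmem254c. mt-Co2 and mt-Co3 had the first and the fifth largest excess (3.26 and 2.40) but came back at r = 0.12 and 0.18, and their reads can fall on near-identical nuclear copies. For Rps12 the SD was 3.10, and it was 1.07 for the summed TPM of Rps12 and its copy Rps12l1. The spread of these 11 genes is not read as a difference between cells. As a percentage of the 20596 genes, the varying genes were 1.43%, and they were 2.34% when ribosomal and spike-in rows were left out of the total and 0.656% with a pseudocount of 10.

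The other leading genes came back closely. Krtdap ran from 0 through 94.03 to 55575 TPM, with an excess SD of 2.63 and an r of 0.93 with the second library. Sprr1b, a cross-linked protein of the cornified envelope, ran from 0 through 35.95 to 9359 TPM (excess 2.42, r 0.98). S100a9 and S100a8, the subunits of calprotectin, reached 16240 and 10603 TPM over medians of 23.2 and 22.4. On another side stood genes of the basement membrane and its receptors. Lamb3, a laminin β chain, ran from 0 through 160 to 1884 TPM (excess 2.15, r 0.97). Itga3, the α3 integrin chain of a laminin receptor, ran from 0 through 56.9 to 641 TPM (excess 1.66, r 0.98).

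**Figure D4:**
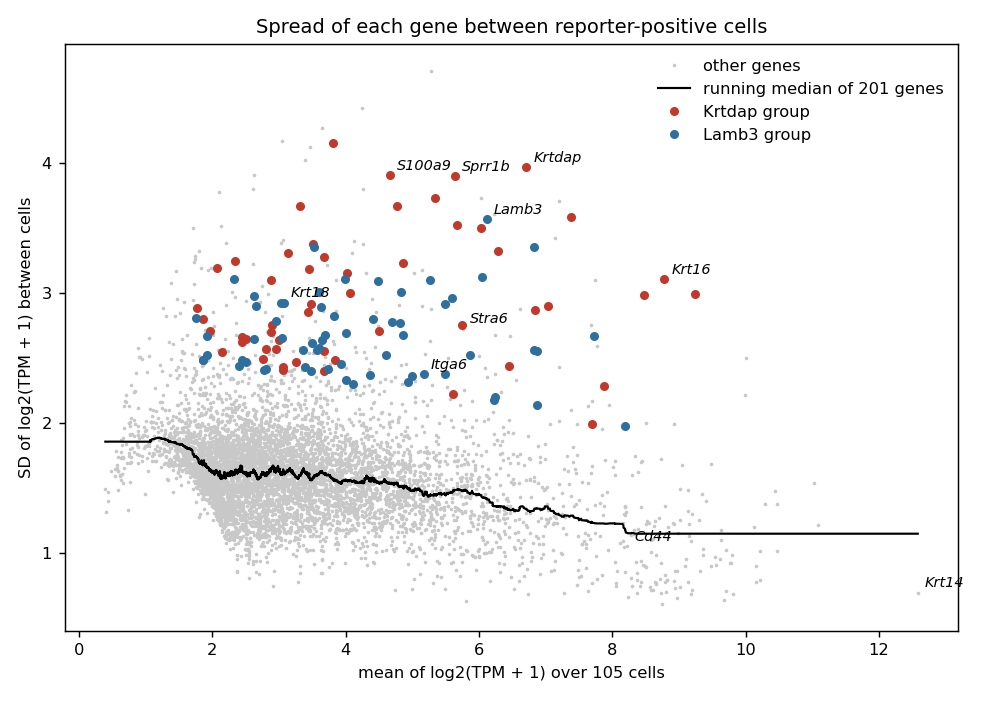
SD between the reporter-positive cells against the mean, both of log2(TPM + 1), for 6306 genes (grey), with the running median (black line) and the members of the Krtdap group (red) and Lamb3 group (blue) described in the text. Both groups lie above the line because they were taken from the 300 genes of largest excess SD, while Krt14 and Cd44 lie below it.

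Clustering the 300 genes of largest excess SD by Spearman correlation over cells, after removing the trend on the number of genes in a cell, gave 2 groups of 8 or more genes. One held 54 genes and is called the Krtdap group. It is 0.856% of the 6306 genes measured for spread. Of the 36 suprabasal and cornified envelope genes it held 7, Krtdap, Dmkn, Sbsn, Calml3, Sprr1a, Sprr1b and Sprr2h. Of the 11 stress keratins and alarmins it held 4, Krt16, Krt6b, S100a8 and S100a9, and of the 15 desmosome genes 2, Dsg1b and Dsc2. Stfa1, Stfa2, Stfa3, BC100530 and Csta1, members of the stefin family of cysteine protease inhibitors, were in it too, though reads may be split between these near-identical copies. So were Aqp3, a water and glycerol channel, Crabp2, a carrier of retinoic acid, and Zfp750, a transcription factor of epidermal differentiation. The leading genes ranged widely, Krt16 from 0 through 387.4 to 11002 TPM, Krt6b from 0 through 47.7 to 4684, Dmkn from 0 through 179.1 to 5945 and Lypd3, a GPI-anchored surface protein, from 0 through 83.7 to 1366.

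The other group held 61 genes and is called the Lamb3 group, after one of its leading genes. It is 0.967% of the genes measured for spread. In it were 8 of 16 genes on the list of basal keratinocyte and hemidesmosome genes, among them the laminin chains Lama3 and Lamb3, the integrin chains Itga3, Itga6, Itgb1 and Itgb4, and Col17a1, the hemidesmosomal collagen. Itgb4 ran from 0 through 246.6 to 1683 TPM and Lama3 from 0 through 71.6 to 808. Col7a1, the anchoring fibril collagen, ran from 0 through 62.9 to 844 TPM. Further matrix genes were Tnc, Col18a1, Sparc and Lamb1, and of the plasminogen system Plau and its receptor Plaur. Plau, the urokinase, ran from 0 through 151.4 to 1966 TPM. The group also held Krt8 and Krt18, the simple epithelial keratin pair, Vim, Lgals1, Tpm1 and Pdpn, and the B7 family member Cd276. One of the sort genes, Itga6, and one proposed marker, Krt18, thus belonged to a set that varied widely within the gate. Cd34, Cd80 and Cd44 did not vary beyond genes of like mean, with excess SDs of -0.13, 0.01 and -0.10. Stra6 did, by 1.25, but joined neither group.

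The levels of the 2 groups went in opposite directions over the cells. Averaged as log2(TPM + 1), the Krtdap group ran from 0.42 through 3.37 to 9.55 and the Lamb3 group from 0.73 through 4.66 to 7.49. Their Pearson r over the cells was -0.79, and -0.84 after the gene number was removed. The groups were chosen from the same cells, so this is a description, and the points share library depth and a fixed total per library. In the second libraries of the same wells r was -0.82. In the other gates, whose cells took no part in the choice, r was -0.51 over 15, -0.67 over 91 and -0.80 over 43 cells. The Lamb3 group held together less tightly there, with a mean rho between its genes of 0.21, 0.30 and 0.17, against 0.56 in reporter-positive cells. For the Krtdap group the means were 0.60, 0.40 and 0.29, against 0.55. Of the 43 α6-negative cells 13 were led by fibroblast and 4 by pericyte and muscle markers. Of the 15 CD44+ reporter-negative cells 1 was led by fibroblast and 2 by pericyte and muscle markers. The part of these cells in the r was not tested. The Krtdap group stood higher in 46 reporter-positive cells and the Lamb3 group in 59. By at least 3 log2 units one or the other was ahead in 32 and 35 cells, and only 11 cells had them within 1 unit. Within the 46 cells r was -0.45 and within the 59 it was -0.05, where the range of both levels is narrower by construction. On CSC2 4 cells had the Krtdap group under 4 and the Lamb3 group under 2, none with over 3401 genes. The limit of 4 lies above the Krtdap group's median of 3.37.

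**Figure D5:**
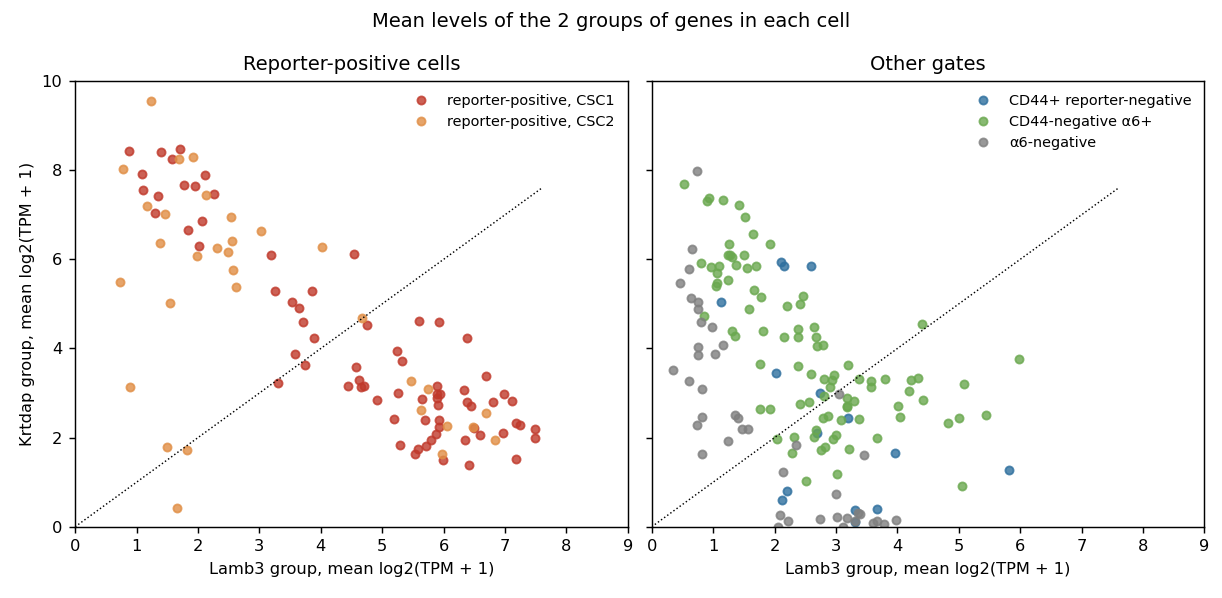
Mean log2(TPM + 1) of the Krtdap group against that of the Lamb3 group, 1 dot per cell, for the reporter-positive cells by plate (left) and for the 3 other gates (right); the dotted line marks equal levels. Of the reporter-positive cells 46 fall above and 59 below the line, with 11 within 1 unit of it. In 4 shallow cells of CSC2 the Krtdap group is under 4 and the Lamb3 group under 2.

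Position was not used to form the groups. By coordinates of GENCODE M21 on GRCm38, of the 51 named protein-coding genes of the Krtdap group 25 lay within 1 Mb of another member, against 8 of 59 in the Lamb3 group. The same share over all genes was not worked out, so these counts do not show that either group is clustered. Members of the same families, such as Stfa1, Stfa2 and Stfa3, are among the 25. Sbsn, Dmkn and Krtdap are neighbours within 39.6 kb of mouse chromosome 7, at chr7:30751471-30791097, and Sprr1a, Sprr1b and Sprr2h lie together on chromosome 3 in the epidermal differentiation complex. The promoters of the chromosome 7 neighbours are shown because the genes belong to 1 group and each holds the AP-1 motif, beside that of Emp1 as a member of the Lamb3 group with the motif. Sequences are from RefSeq on GRCm38.p6, 250 bases before the transcript start to 50 after it, with TGANTCA matches on either strand in capitals. Emp1 encodes a tetraspan membrane protein.
Krtdap, chr7:30787655-30787954, plus strand: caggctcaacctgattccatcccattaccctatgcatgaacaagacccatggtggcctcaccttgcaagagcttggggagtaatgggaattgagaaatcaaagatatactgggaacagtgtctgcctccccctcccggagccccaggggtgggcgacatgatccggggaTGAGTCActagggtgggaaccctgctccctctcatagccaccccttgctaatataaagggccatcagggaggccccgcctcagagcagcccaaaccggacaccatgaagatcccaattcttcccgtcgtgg
Dmkn, chr7:30763506-30763805, plus strand: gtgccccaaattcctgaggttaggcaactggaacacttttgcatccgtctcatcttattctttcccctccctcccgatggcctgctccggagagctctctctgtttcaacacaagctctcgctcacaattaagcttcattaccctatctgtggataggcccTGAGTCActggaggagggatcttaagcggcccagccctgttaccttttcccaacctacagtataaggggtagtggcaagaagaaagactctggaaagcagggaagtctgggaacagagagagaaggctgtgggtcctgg
Sbsn, chr7:30751221-30751520, plus strand: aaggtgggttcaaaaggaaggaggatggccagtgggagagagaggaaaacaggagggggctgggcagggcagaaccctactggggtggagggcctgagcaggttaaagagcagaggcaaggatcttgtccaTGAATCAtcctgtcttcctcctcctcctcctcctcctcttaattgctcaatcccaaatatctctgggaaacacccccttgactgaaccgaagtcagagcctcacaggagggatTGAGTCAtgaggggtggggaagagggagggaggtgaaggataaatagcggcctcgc
Emp1, chr6:135362681-135362980, plus strand: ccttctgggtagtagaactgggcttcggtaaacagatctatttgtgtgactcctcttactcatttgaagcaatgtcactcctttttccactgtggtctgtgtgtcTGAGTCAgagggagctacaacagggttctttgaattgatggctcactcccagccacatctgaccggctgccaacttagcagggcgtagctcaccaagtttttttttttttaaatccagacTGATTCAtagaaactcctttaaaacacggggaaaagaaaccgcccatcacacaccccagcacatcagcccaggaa
The match nearest the start begins 81 bases before it in Krtdap, 89 in Dmkn, 6 in Sbsn and 25 in Emp1, and Sbsn and Emp1 each hold another farther upstream. TGANTCA was present in 10 of 36 promoters of the Krtdap group that the table holds (27.8%), in 3 of 45 of the Lamb3 group (6.67%) and in 6.99% of 15808 promoters of protein-coding genes. The SMAD binding element GTCTAGAC, of the kind named in the reporter, was in none of the 36 or 45 and in 0.196% of all. At so low a share of all promoters, its absence from lists this short says little. The shorter SMAD motif CAGAC was in 19 of 36 and 27 of 45 promoters (52.8% and 60%), against 48.4% of all. The TATA motif TATAAA was in 10 of 36 and 11 of 45 (27.8% and 24.4%), against 12.7% of all. The TEAD motif CATTCC was in 9 of 36 and 3 of 45 (25% and 6.67%), against 13.2% of all. The GC box GGGCGG was in 14 of 36 and 32 of 45 promoters (38.9% and 71.1%), against 48.6% of all. These were among 9 motifs searched, each on both strands, and a match is not a bound site.

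Genes outside the 2 groups were placed by their Spearman correlation with the difference in level between them, Krtdap group minus Lamb3 group, after removing the gene number and, for a group member, leaving the gene itself out of the level. The lists below include members of the 2 groups, whose direction their membership fixes. Plate was not taken out, and the Krtdap group was ahead in 32.9% of cells on CSC1 and 68.8% on CSC2. The correlations given for genes pool both plates. Those within each plate are not reported here, and the part of plate was not tested. Over 10739 genes the median was 0.01, with 5564 above 0 and 5175 below. Keratinocyte markers leaned to the Krtdap side, 12 of 15 above 0 with a median of 0.59. Krt14 itself had a correlation of 0.57, Sfn 0.59 and Krt6a 0.72, while Krt5 had 0.28 and Krt17 0.08. Desmosome genes were above 0 in 13 of 15 (median 0.67), among them the linker Jup at 0.67, Dsp at 0.67 and Dsc3 at 0.77. The exceptions were Dsg2 at -0.60 and Pkp2 at -0.20. Epcam, an adhesion molecule of simple epithelia and a member of the Lamb3 group, lay on the other side of the keratinocyte markers at -0.83, and Trp63, the basal master factor, at -0.19.

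Of the TGF-β ligands and their activators 11 of 12 had a correlation below 0, with a median of -0.42. Outside the 2 groups it was 9 of 10, with a median of -0.36. Of 8 genes of this list compared between plates, 4 were at least 2-fold higher on CSC1 and none on CSC2, against 5.41% and 9.18% of all genes compared. Thbs1, the thrombospondin that can activate latent TGF-β, was found in 56 cells, from 0 through 1.83 to 431.3 TPM, with a correlation of -0.75. Inhba, the activin A subunit, was found in 46 cells and had -0.49. Both belong to the Lamb3 group, which fixes their sign. The ligands proper had means of 10.5 TPM or less. Tgfb1 had a mean of 9.29 TPM and was found in 78 cells, Tgfb3 a mean of 10.5 TPM in 61 cells and Tgfb2 a mean of 1.65 TPM in 39 cells, at correlations of -0.40, -0.45 and -0.20. The αv and β6 integrin chains, which activate latent TGF-β, had -0.44 for Itgav and -0.45 for Itgb6.

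Of the receptors and SMADs 11 of 13 were below 0 (median -0.22), none of 17 was found in 95% of cells and none of the 8 measured for spread varied. Over all genes these last shares were 5.67% and 4.68%, so neither count sets so short a list apart from other genes. Tgfbr2, the type II receptor, ran from 0 through 12.9 to 71.3 TPM and was found in 93 cells. Tgfbr1, the type I receptor, was found in 78 cells with a median of 3.38 TPM. Smad2, Smad3 and Smad4 were found in 91, 79 and 89 cells at medians of 9.81, 8.19 and 8.42 TPM. Smad7, an inhibitor that the pathway induces, was found in 57 cells at a median of 1.19 TPM.

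Most response genes of the pathway also lay below 0, though not all. Of 20 placed, 16 were below 0 and the median was -0.23. Outside the 2 groups 15 of 18 were below 0. Between plates, 6 of the 17 compared were at least 2-fold higher on CSC1 and 1 on CSC2, against 5.41% and 9.18% of all genes. Tgfbi, a secreted matrix protein, was found in 97.1% of cells, from 0 through 64.9 to 608 TPM, and Cdkn2b, an inhibitor of CDK4 and CDK6, in 94 cells, at a median of 19.2 TPM. Pmepa1, a feedback inhibitor, had -0.71 and Itga5, the fibronectin receptor chain, -0.74. Klf10 went the other way at 0.58. Id1, better known as a BMP target, had 0.66 and is a member of the Krtdap group. Ctgf was found in 4 cells and Postn in 8. Summed over the 25 genes, the response list had a median of 450.9 TPM in the reporter-positive cells. The sums were 627.2 TPM in the CD44+ reporter-negative cells, 396.7 TPM in α6+ cells without CD44 and 613.2 TPM in those without α6, so the gate sorted on the reporter did not have the highest sum. Keratinocyte markers led in 12 of the 15 CD44+ reporter-negative and 26 of the 43 α6-negative cells only, fibroblast markers in 13 of the latter, and the part of these cells in the sums was not tested.

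Matrix genes and proteases were below 0 in 20 of 22 (median -0.55), and in 13 of 15 outside the 2 groups (median -0.32), as Mmp14 at -0.75 and Col4a2 at -0.75 show. Of 20 genes of this list compared between plates, 17 were at least 2-fold higher on CSC1 and none on CSC2. Among all genes compared the shares were 5.41% and 9.18%. Growth factors were below 0 in 18 of 22 (median -0.38), and in 15 of 19 outside the 2 groups (median -0.25). Between plates, 8 of the 20 growth factors compared were at least 2-fold higher on CSC1 and 1 on CSC2. Wnt10a, a Lamb3 group member, and Pdgfa had -0.73 and -0.72, Jag1, a Notch ligand, -0.64 and Nrg1 -0.68. Of the EGF receptor ligands, Tgfa had -0.29, Hbegf -0.03, Areg -0.03, Epgn 0.05, Ereg 0.13 and Btc 0.28. Among co-signalling genes the Lamb3 group members Cd276 and Lgals9 had -0.79 and -0.76, and Nt5e, the ecto-enzyme that makes adenosine, had -0.58, while Cd80 had -0.12 and the arginase Arg1 0.03. Cd274, which encodes PD-L1, was found in 15 cells at 8.27 TPM or less. All 21 placed G2/M genes were above 0, at a median of 0.25. Between plates, 3 of the 14 compared were at least 2-fold higher on CSC2 and none on CSC1. Ube2c, of the anaphase ubiquitin ligase, was found in 47 cells and Mki67 in 24.

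A gene was called on or off when it was found in 25% to 75% of the cells at a mean of 50 TPM or more where found. That held for 0.544% of the 20596 genes. Sprr1a was found in 60 cells, at a mean of 1038 TPM in those. S100a9 was found in 73 cells at 696 TPM, Cnfn, a cornified envelope protein, in 31 and Trex2, a keratinocyte exonuclease, in 60 at 163.2 TPM. Il24, a cytokine of the IL-10 family, was found in 63 cells at 176.8 TPM and in 2 of 15, 9 of 91 and 0 of 43 cells of the other gates. Ndrg1, a hypoxia and stress gene, was found in 60 cells at 160.1 TPM and Clu, the extracellular chaperone clusterin, in 78 at 141.1 TPM. Slpi, a secreted inhibitor of neutrophil elastase, was found in 48 cells at 565 TPM, but 1 cell held 25403 TPM. Without that cell its mean where found was 36.8 TPM, under the limit of 50. Of all genes called on or off, 20.5% lost the call in the same way when their highest cell was left out, and of those named here only Slpi. On CSC2 alone such genes were 0.918% of the same 20596, and after rescaling without ribosomal and spike-in rows 3.02%.

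Plates CSC1 and CSC2 carry the same labels. Over 7062 genes with a mean of 5 TPM or more on a plate, 5.41% had a mean (plus 1) at least 2-fold higher on CSC1 and 9.18% on CSC2, around a median log2 ratio of -0.05. Rescaling without ribosomal and spike-in rows moved that median to 0.27 and the counts to 1560 and 834, so which plate had more higher genes turned with the scale. A ratio of medians also turned it, with 77.4% of the genes apart higher on CSC1, against 37.1%. Ribosomal rows took a median of 72.4% on CSC1 and 66.1% on CSC2, and their part in the counts was not tested. The genes furthest apart mostly rested on few cells. Klk6, a kallikrein, had means of 34.9 TPM on CSC1 and 471.7 on CSC2 over medians of 0 on both, and Postn, the matrix protein periostin, 0.269 and 60.7 TPM over medians of 0 again. Mmp9, the gelatinase, was found in 63.01% of cells on CSC1 and 25% on CSC2, with means of 93.6 and 4.01 TPM. Tnc, the matrix glycoprotein tenascin-C, was found in 69.9% and 34.4% with medians of 24.3 and 0 TPM, higher on CSC1 on each of the 3 scales. The Krtdap group stood above the Lamb3 group in 24 of 73 cells on CSC1 and 22 of 32 on CSC2, 32.9% and 68.8%. The opposition of the groups held on each plate, at r = -0.90 on CSC1 and -0.57 on CSC2.

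As background, of 6643 genes 4.61% had a mean at least 2-fold above that of each other gate and 1.35% at least 2-fold below. Of those above, 64 were also among the genes that varied within the gate and 52 among those found in 95% of its cells. Rescaled without ribosomal and spike-in rows 62.1% of the genes apart were above, against 77.3% as deposited, and all genes apart came to 3.72% of the 20596 against 1.92%. On CSC2 alone they came to 3.13%. The proposed markers gave 4 of 6, which the choice of markers fixes, and growth factors 10 of 28. The 5 genes that follow were chosen after their values were seen. Pthlh, the parathyroid hormone-like hormone, had a mean of 42.2 TPM against 1.01 TPM in CD44+ reporter-negative cells, 2.31 in α6+ cells without CD44 and 1.83 in cells without α6, and was found in 78 cells. Hmga2, a chromatin protein of embryonic and tumour cells, had 22.6 TPM against 1.83, 1.55 and 0.681, found in 76 cells. Krt8 had 37.5 TPM against 3.59, 0 and 0. Arg1 had 20.4 TPM against 0, 0.151 and 0.375, found in 59 cells. Krt15, a keratin of quiescent basal and bulge cells, went the other way, with 1.45 TPM against 36.95, 74.4 and 117.4, and was found in 8 cells. These 5 genes stayed beyond 2-fold in the same direction from each gate after rescaling without ribosomal and spike-in rows. Pthlh, Krt8 and Arg1 vary within the gate, so their gate means do not describe each of its cells.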

How the data were processed

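Single cells were sorted into plates and their libraries were made by full-length Smart-seq2 with Nextera XT and read as pairs on a NextSeq, per the labels' protocols. Bowtie2 2.2.9, RSEM 1.2.30 and mm10 are named, without a role, in the submitters' processing notes. The deposited values are TPM per gene, made by the authors. There are 46517 gene rows, 8 of them of ribosomal RNA, and 92 spike-in rows besides. Depth cannot be read from TPM, and the number of genes at 1 TPM or more was used in its place, and a high share of ribosomal RNA lowers the TPM of all other genes.

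The members, the gene lists and the rules were chosen with earlier results of these data known. Libraries with 2000 or more genes were kept and no doublet caller was run. Logarithms are log2(TPM + 1). Spread was compared for genes of mean 5 TPM or more in 10 or more cells, and gene groups came from average linkage at a distance of up to 0.6. Shares have exact (Clopper-Pearson) 95% intervals, apart from the limit given for Xist. Plates and gates were compared by the ratio of means plus 1, and no test was run because each gate counts as 1 sample. Genes were named by rule: markers and sort genes, the 25 of highest mean, the 20 of 95% genes with the largest gap, the 30 of largest excess SD, the 20 leading on or off genes, the 10 furthest each way between plates, the 8 leading each group, and list members by level, spread or place in a pathway. Other list members, and genes of the groups beyond these 8, were named after their values were seen. Of 908 columns 376 were not used. Gene positions are from GENCODE M21, which held 46005 of the gene rows, and promoters are from RefSeq. Python 3.11.15, numpy 2.4.6, scipy 1.17.1 and pandas 2.3.3 were used. The spread, grouping and fold steps were tried on simulated cells of equal depth, without plates or ribosomal RNA. That trial therefore does not cover the differences in depth, plate and ribosomal share of the real cells. Some genes are not reported here.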

Additional observations from a re-analysis of the deposited data

How the results depend on the processing

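No r changed sign under the alternatives tried, but the plate with more higher genes did turn, as given below. To set them side by side, each count of genes is given here as a percentage of the 20596 genes found in any reporter-positive cell. Counts that moved by over 1.5 times, and r by over 0.1, were these. Genes found in 95% of cells were 5.67%, against 10.9% in libraries of at least 6000 genes, 2.02% without plate CSC1, 9.67% without plate CSC2, 3.47% at a limit of 5 TPM and 0.762% for every cell. Varying genes were 1.43%, against 2.34% after rescaling without spike-ins and ribosomal rows, 2.15% with a pseudocount of 0.1, 0.656% with one of 10 and 0.733% at a mean of at least 20 TPM. On or off genes were 0.544%, against 3.02% after rescaling and 0.918% without CSC1. Genes apart between plates were 5.001%, against 11.6% after rescaling, 1.55% with a pseudocount of 10 and 8.44% with no filter on low values. Of these genes 37.1% were higher on CSC1, against 65.2% after rescaling and 77.4% by medians. Genes beyond all 3 gates were 1.92%, against 3.72% after rescaling, 3.13% without CSC1, 0.728% with a pseudocount of 10 and 3.16% with no filter. With keratinocyte-led cells alone they were 2.25%, and 1.96% where the α6+ cells without CD44 were only the 45 with Y-linked transcripts. The r between the 2 gene groups was -0.79, against -0.91 in libraries of at least 6000 genes, -0.57 without CSC1 and -0.90 without CSC2. The cause of these moves was not tested. Of the other counts and r, 36 stayed within the same limits, among them those from the second libraries of the same wells. Of 18 shares of cells with a marker, 8 left the interval of the main value, among them 22.9% for Cd34 and 56.2% for Cd80 at a limit of 5 TPM, against 36.2% and 75.2%. All settings for r, that on Y-linked transcripts and those without libraries of over 10% spike-in, were added after seeing the data. No paired analysis was possible because each gate counts as 1 sample and no number pairs its wells.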
